A study of Mus musculus with 8 samples.

Results

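Creatine, adenylate and AMP metabolism was followed through 10 genes, Ckm, Ckmt2, Ckb, Ak1, Ampd1, Ampd3, Adssl1, Slc6a8, Slc25a4 and Nt5c1a, in gastrocnemius, the large calf muscle, of mice that lacked AMPKα1 or AMPKα2 (knockout, KO) and of wild-type (WT) mice. The genes were taken by symbol from the deposited table of alternative polyadenylation sites (APSs), the genomic positions at which the 3′ ends of transcripts were read. All 10 symbols were found, and they held 90 of the 56483 APSs and 10 of the 15349 gene symbols. All 90 APSs lay on the strand of their gene.

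Working muscle can split ATP faster than mitochondria supply it. Creatine kinases refill ATP from phosphocreatine, adenylate kinase turns a pair of ADP molecules into ATP and AMP, and AMP is either sensed by the AMP-activated protein kinase (AMPK), deaminated to IMP, or stripped of its phosphate. AMPK, whose catalytic subunit is encoded by Prkaa1 (AMPKα1) or Prkaa2 (AMPKα2), thus reads the nucleotide that several of these genes make or remove.

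Each model had 2 male KO and 2 male WT mice, with 1 library per mouse, so that there were 8 libraries in 4 groups. The AMPKα1 -/- and AMPKα2 -/- mice carried deletions in the region coding for the catalytic domain of the targeted subunit, and no other allele or treatment was given for any group. Age was about 6 weeks for AMPKα1 KO and about 8 weeks for AMPKα2 KO mice, and that of the WT mice was not given in the sources used here. The sample labels name C57BL/6 for all groups, whereas the study's methods name 129S2/SvPas for the AMPKα1 KO mice, so that model, age, strain and library set cannot be told apart where the models are set side by side.

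Libraries were made by WTTS-seq (whole transcriptome termini site sequencing), which counts reads at the 3′ ends of polyadenylated RNA, and held 2311242 to 3549156 counted reads. A count of 3 reads, taken as the smallest the depth can show, corresponded to 0.845 to 1.30 CPM (counts per 1000000 reads). The targeted genes did not serve as a check of the labels, since a deletion in the coding region can leave reads at the 3′ end, and where the APSs lie relative to the deletions was not tested. Prkaa1 had 0 and 82 reads in the AMPKα1 KO and 15 and 0 in their WT libraries, and Prkaa2 had 40 and 71 reads in the AMPKα2 KO and 87 and 62 in their WT libraries. The libraries of the 2 models stood apart. Between 55.2% and 63.3% of the reads of genes with an annotated end fell within 100 bases of that end in the AMPKα1 libraries, against 25.7% in AMPKα2 KO 1 and 32.9% to 33.9% in the other AMPKα2 libraries. The 10 genes took 0.782% to 1.20% of the reads of an AMPKα1 library and 0.572% to 0.722% of an AMPKα2 library.

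The main APS of a gene, the one with most reads over the 8 libraries, lay in the 3′ untranslated region or within 2 kb downstream of it in 9 of the 10 genes, and within 12 bases of the annotated gene end in 8. For Slc25a4 it lay 177 bases before the end, and for Nt5c1a outside the GENCODE transcripts and before the RefSeq gene end. The 30 bases that end at the main APS could be read from annotated transcripts for 7 genes. They are shown because they hold, or lack, the hexamer AATAAA, the usual signal for cleavage and polyadenylation, set in capitals where present (GRCm38, 5′ to 3′ on the strand of the gene).
Ckm, chr7:19421558-19421587, plus strand: cttaAATAAAagtccgtgatggccttagct
Ckmt2, chr13:91853391-91853420, minus strand: gctatctttacAATAAAactctccttaata
Ckb, chr12:111669361-111669390, minus strand: tgaaAATAAActagggtttggcctgcccta
Ampd1, chr3:103099689-103099718, plus strand: aacagaatgAATAAAgtaaatagactaaat
Adssl1, chr12:112641314-112641343, plus strand: atAATAAAcatagccaggggtcactgagcc
Slc6a8, chrX:73682473-73682502, plus strand: atagcAATAAAaacacttcattttccaaaa
Slc25a4, chr8:46207345-46207374, minus strand: ataaaaccagaccgtaaggaatacctcaga
The hexamer stood in 6 of these 7 windows, on the strand of the gene, against 31.3% of the 21207 APSs of the table whose 30 preceding bases could be read. Slc25a4 lacked both AATAAA and the variant ATTAAA in this window, and a longer window was not searched for any site.

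No member was called in either model at the gene level, where the reads of all APSs of a gene were summed and KO and WT were compared by edgeR's quasi-likelihood test with Benjamini-Hochberg adjustment (called at an adjusted p under 0.1). In the AMPKα1 model 0 of 10 members were called, against 0% of the 13924 genes tested. In the AMPKα2 model 0 of 9 tested members were called, against 0.484% of 10536 genes; Ckb, with 14 reads or fewer in all, was under the minimum of 16 reads. At an unadjusted p under 0.05 in edgeR's test stood 2 members in AMPKα1, Ampd1 and Ckmt2, both lower in KO as were 2.85% of all genes at that threshold, and 0 in AMPKα2, where 3.64% of genes were lower and 4.79% higher. With DESeq2 in place of edgeR, Ampd1 was called as lower in AMPKα1 KO (adjusted p = 0.0879), where DESeq2 called 0.873% of 10081 genes as lower, and no member was called in AMPKα2, where it called 1.27% of 5815 genes. The spread between mice differed widely between the models, with a biological coefficient of variation of 104% in AMPKα1 and 26.2% in AMPKα2. Where nothing else is said, levels below are in normalised CPM (counts scaled by library size and TMM factor within a model), and differences are log2 fold changes of KO over WT with their SE. For a single gene, exact permutation of 2 mice against 2 has a smallest two-sided p of 0.333, so no such test could pass.

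The members leaned to lower values in AMPKα1 KO, without a call. The log2 fold change was below 0 for 9 of the 10 members, against 51.1% of all genes, with a median of -0.95 over the members and -0.03 over all genes. In bulk muscle, fewer cells of a type and less RNA per cell cannot be told apart. Both KO libraries lay below both WT libraries for 6 members, Ckmt2, Ckb, Ak1, Ampd1, Slc25a4 and Nt5c1a, a pattern found in 18.9% of all genes. Both lay above for 1 member, Slc6a8, a pattern found in 13.6%. In AMPKα2 the difference was below 0 for 2 of the 9 members tested, against 50.6% of all genes, and the median was 0.17 over the members and -0.01 over all genes. There both KO libraries lay above both WT libraries for 3 members, Ckm, Ak1 and Ampd3 (18.7% of all genes), and below for 1, Nt5c1a (20.5%). With library totals in place of TMM factors, the median of all genes shifted to 0.22 in AMPKα1 and -0.19 in AMPKα2, and the median of the members to -0.63 and -0.02. The members below 0 were then 8 of 10 in AMPKα1 and 5 of 9 in AMPKα2, and the share of all genes below 0 with this scaling was not counted. In AMPKα2 the median of the members thus no longer lay above 0, but it stayed above that of all genes.

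**Figure D1:**
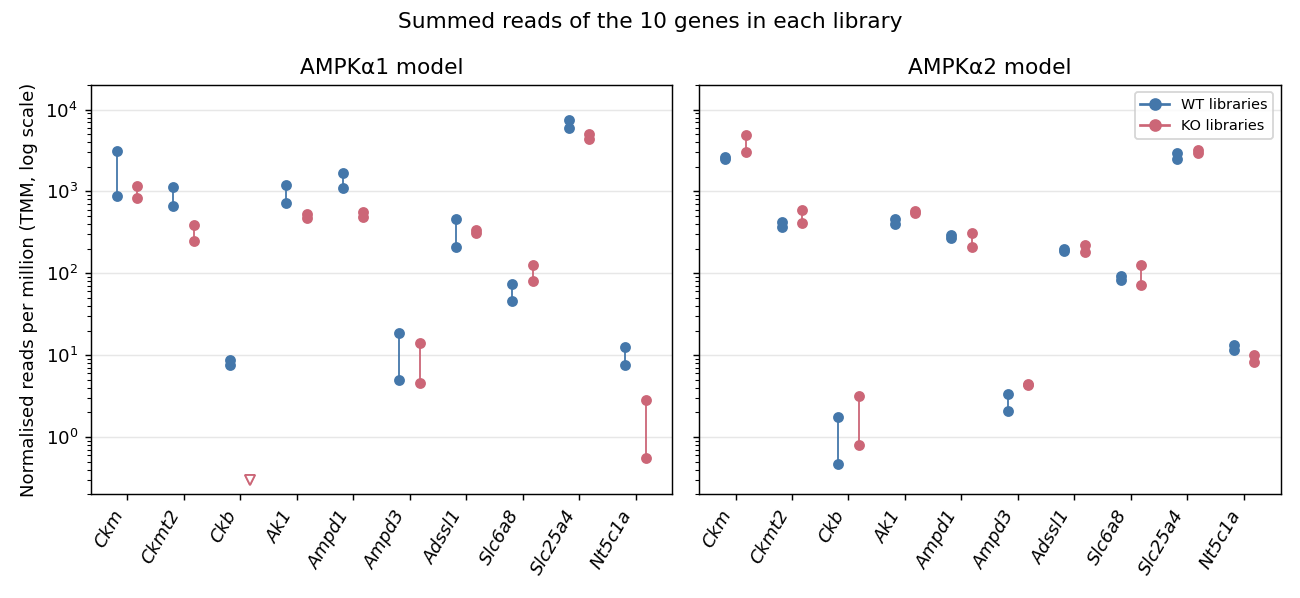
Normalised CPM (log scale) of the 10 genes in each library, with AMPKα1 on the left and AMPKα2 on the right; points are single mice, lines join the 2 mice of a group, and the open triangle stands for both AMPKα1 KO libraries of Ckb at 0. The KO points of Ckmt2, Ak1, Ampd1 and Slc25a4 lie below the WT points in AMPKα1, and the KO points of Ckm and Ak1 above the WT points in AMPKα2.

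The creatine kinases are the enzymes of the phosphocreatine buffer. Ckm, the cytosolic muscle form, was at 1165 and 841 in AMPKα1 KO 1 and KO 2 and at 3081 and 886 in WT 1 and WT 2. The groups overlapped, since a single library, WT 1, stood far above the other 3. The fitted difference of -0.98 ± 0.61 (edgeR adjusted p = 0.763) became 0.18 without WT 1. In AMPKα2, Ckm was at 4868 and 3011 in KO and 2457 and 2609 in WT. Both KO libraries were higher here, KO 1 most of all, and the difference was 0.64 ± 0.32 (edgeR adjusted p = 0.638). It was 0.25 without KO 1, and 0.22 ± 0.30 when the main APS of Ckm alone was tested.

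Ckmt2, the mitochondrial form of striated muscle that charges creatine with phosphate beside the ATP exporter, was at 387 and 250.0 in AMPKα1 KO and 1120 and 666 in WT. The KO libraries were both lower, 2.80-fold on average, and the difference of -1.49 ± 0.45 had an unadjusted p of 0.0149 and an adjusted p of 0.763 in edgeR's test. In AMPKα2 the values were 598 and 410.0 in KO and 364 and 426 in WT, which overlapped (0.35 ± 0.27). Its main APS alone gave -1.76 ± 0.48 in AMPKα1 and -0.06 ± 0.30 in AMPKα2.

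Ckb, the brain form, was near the limit of detection in this muscle. Neither AMPKα1 KO library held a read of it (0 and 0), whereas the WT libraries held 16 and 26. With the KO counts set to a floor of 3 reads per library, the mean KO level was 9.68-fold lower than that of WT. This floor covers counting error only and leaves out the spread between mice. The adjusted p in edgeR's test was 0.763. The AMPKα2 libraries held 5 and 2 (KO) and 6 and 1 (WT), too few to test.

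Slc6a8, the sodium-dependent creatine transporter that brings creatine into the fibre, was the one member with a positive difference in AMPKα1. It stood at 81.4 and 128 in KO and 73.8 and 45.5 in WT, with both KO libraries higher (0.81 ± 0.53, edgeR adjusted p = 0.763). The difference was 0.45 without KO 2 and 0.54 without WT 2. In AMPKα2 it was at 127 and 71.2 in KO and 82.7 and 92.9 in WT. These overlapped, and the difference of 0.17 ± 0.29 became -0.30 without KO 1.

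Ak1, the cytosolic adenylate kinase, differed as a gene sum in opposite directions in the 2 models, without passing a test in either. It was at 480.1 and 531 in AMPKα1 KO and 1185 and 714 in WT, so that the KO libraries were both lower (-0.91 ± 0.40, and -0.50 without WT 1). In AMPKα2 it was at 574 and 550.0 in KO and 464 and 404 in WT, so that the KO libraries were both higher (0.37 ± 0.25). The difference between these effects, tested as an interaction over the 8 libraries, was 1.26 ± 0.46 with an adjusted p of 0.616 in edgeR's test. The main APS of Ak1 alone gave -1.25 ± 0.47 in AMPKα1, lower in both KO libraries. In AMPKα2 it gave 0.22 ± 0.32, and the groups overlapped.

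Slc25a4, the adenine nucleotide translocator that exchanges mitochondrial ATP for cytosolic ADP, was at 4969 and 4424 in AMPKα1 KO and 7555 and 5950 in WT, with the KO libraries both lower by 1.44-fold on average (-0.52 ± 0.31, edgeR adjusted p = 0.763), or -0.34 without WT 1. In AMPKα2 it was at 3184 and 2914 in KO and 2476 and 2953 in WT. These values overlapped (0.17 ± 0.29).

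Ampd1, the AMP deaminase of skeletal muscle that turns AMP into IMP, showed the smallest unadjusted p of the members in AMPKα1. It was at 492 and 561 in KO and 1673 and 1087 in WT. The KO libraries agreed closely with each other and lay far below both WT libraries, 2.62-fold on average (-1.39 ± 0.38, unadjusted p = 0.0099, adjusted p = 0.763 by edgeR). Leaving out each library in turn kept the difference between -1.63 and -1.05. Its main APS alone gave -1.76 ± 0.43 (adjusted p = 0.543 by edgeR). In AMPKα2 Ampd1 was at 313 and 208 in KO and 297 and 267 in WT, which overlapped (-0.12 ± 0.27). Its main APS alone was lower in both AMPKα2 KO libraries, at 141 ± 18.2 against 209 ± 18.1 CPM (SD, n = 2). That difference was -0.56 ± 0.31 (adjusted p = 0.699 by edgeR), and -0.70 to -0.43 when each library was left out.

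Adssl1, the muscle adenylosuccinate synthetase that takes IMP back towards AMP, was at 314 and 336 in AMPKα1 KO and 459 and 212 in WT. The KO values lay between the WT values (-0.05 ± 0.48), and the sign of the difference turned with the scaling, being 0.27 with library totals. In AMPKα2 it was at 182 and 223 in KO and 199 and 186 in WT, with groups that overlapped (0.07 ± 0.24).

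Ampd3, the AMP deaminase best known from red blood cells, and Nt5c1a, the cytosolic nucleotidase that frees adenosine from AMP, had few reads. The reads of Ampd3 numbered 16 and 51 for AMPKα1 KO, 9 and 65 for WT, 7 and 11 for AMPKα2 KO and 7 and 7 for WT. Its difference was -0.35 ± 1.53 in AMPKα1, where the groups overlapped, and 0.74 ± 0.60 in AMPKα2, where both KO libraries were higher on the normalised scale. Those of Nt5c1a numbered 10 and 2 for AMPKα1 KO, 14 and 43 for WT, 16 and 21 for AMPKα2 KO and 39 and 28 for WT. It was lower in both KO libraries of either model on the normalised scale (-2.54 ± 2.15 and -0.42 ± 0.38), and of the 43 reads of AMPKα1 WT 2 as many as 32 came from 1 APS with 1 read in all 3 other AMPKα1 libraries together.

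**Figure D2:**
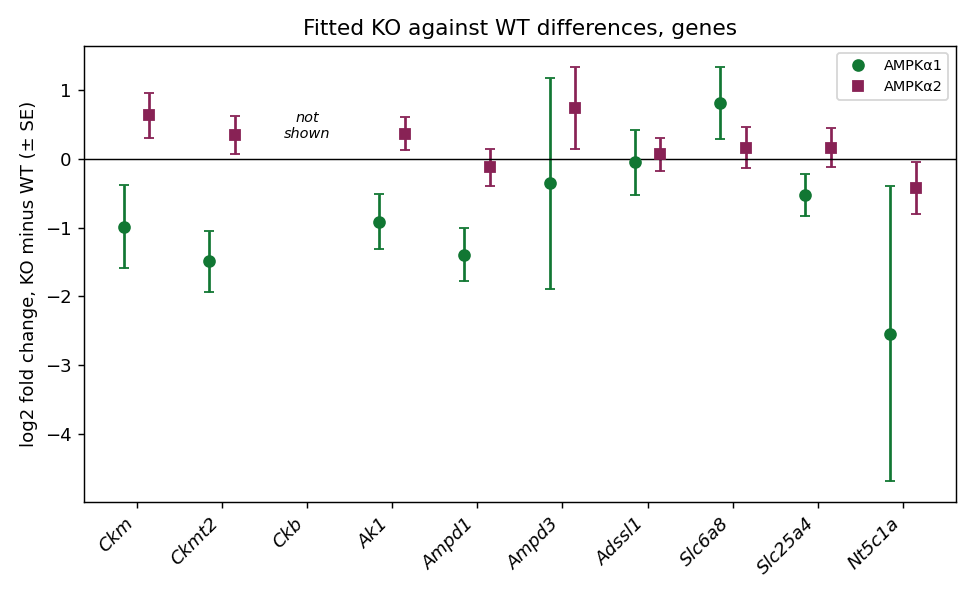
Log2 fold change of KO over WT for each gene with its SE from edgeR's fit, circles for AMPKα1 and squares for AMPKα2; Ckb is left out because both AMPKα1 KO libraries were at 0 and it was not tested in AMPKα2. AMPKα1 values lie below 0 except for Slc6a8, from -2.54 for Nt5c1a to -0.05 for Adssl1, and AMPKα2 values lie between -0.42 and 0.74.

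The interaction test asked whether the KO effect differed between the models. It called 0 of the 10 members, against 0.0586% of 15349 genes. At an unadjusted p under 0.05 stood Ckmt2 (1.81 ± 0.54), Ckb, Ak1 and Ampd1 (1.25 ± 0.48), against 6.93% of all genes, with adjusted p values of 0.508 to 0.636 in edgeR's test. For each of these 4 genes the fitted effect was the higher one in AMPKα2, though Ckb had too few reads there to test on its own. That fit gives each gene 1 spread for both models, although the spread between mice was wider in AMPKα1. For Ckb the SE of the difference was 2.43, below the 3.21 of its AMPKα1 effect alone. For Nt5c1a these were 1.13 and 2.15.

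Of a wider list of 49 genes of creatine, adenylate and purine metabolism, 39 were in the table. In AMPKα1 0 of 37 tested genes were called (0% of all genes), with 21 below 0 and 16 above (51.1% of all genes below 0) and a median of -0.19. In AMPKα2 0 of 31 were called (0.484% of all genes), with 14 below 0 and 17 above (50.6% of all genes below 0) and a median of 0.09. The 5 with the most reads were Slc25a3, the mitochondrial phosphate carrier, the outer membrane channels Vdac1, Vdac2 and Vdac3, and Adsl, adenylosuccinate lyase, which completes the purine nucleotide cycle with Ampd1 and Adssl1. Slc25a3 was at 356 and 346 in AMPKα1 KO and 1228 and 474 in WT, lower in both KO libraries (-1.28 ± 0.52, edgeR adjusted p = 0.763). Vdac1 was at 969 and 682 in AMPKα1 KO and 795 and 696 in WT, which overlapped (0.15 ± 0.37). Vdac2 (-0.28 ± 0.41) and Vdac3 (-0.89 ± 0.58) overlapped as well, and Adsl was lower in both AMPKα1 KO libraries (-0.39 ± 0.42). In AMPKα2 the differences of these 5 genes lay between -0.34 and 0.09. Impdh1, an IMP dehydrogenase of guanine nucleotide synthesis, is named after its values were seen. It had no reads in AMPKα1 KO against 31 and 39 in WT, and 37 and 51 in AMPKα2 KO against 29 and 16 in WT (1.42 ± 0.34, edgeR adjusted p = 0.208). It was called as lower in AMPKα1 when all 8 libraries shared 1 fit (0.476% of 15349 genes) and as higher in AMPKα2 without the minimum of 16 reads (1.69% of 14574). In the fit of the AMPKα1 libraries alone its edgeR adjusted p was 0.763.

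At the level of single sites, 0 of 41 member APSs with enough reads were called in AMPKα1 (0.00454% of 44024 APSs) and 0 of 77 in AMPKα2 (0.056% of 23218). The result in AMPKα1 depended on the WT library. Without WT 1, the main APSs of Ckm (-0.038), Ak1 (-0.57), Ckmt2 (-1.22) and Ampd1 (-1.27) were not called, and the difference of Ckm was near 0. Without WT 2, the main APSs of Ckm (-2.15), Ckmt2 (-2.13), Ampd1 (-2.11) and Ak1 (-1.69) were called as lower in KO, with edgeR adjusted p values of 0.00314 to 0.0787, where 0.445% of 34866 APSs were called as lower. That fit sets 2 KO mice against WT 1 alone, whose spread is assumed to equal that of the others. In AMPKα2 without the minimum of 16 reads, 4 coding-exon APSs (3 of Ckm and 1 of Ckmt2) were called as higher in KO, where 0.85% of 50017 APSs were.

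The sites at which the members' reads fell differed between the 2 sets of libraries far more than between KO and WT. The 90 APSs comprised 16 in a 3′ untranslated region, 7 within 2 kb downstream, 29 in coding exons, 32 in introns and 6 elsewhere. Of the 29 coding-exon APSs, 24 had no read in any AMPKα1 library and at least 16 reads over the AMPKα2 libraries, which is 82.8%, against 51.7% of the 4087 coding-exon APSs of protein-coding genes in the table. Sites that summed to fewer than 16 reads in the 8 libraries are absent from the table, so that a site with none in one model has at least 16 in the other by construction. The reverse, no read in AMPKα2 and at least 16 in AMPKα1, held for 0 of the 29, against 0.832% of the 4087. A read was found at 28 or 29 of them in each AMPKα2 library and at 0 to 4 in each AMPKα1 library. Coding-exon APSs took 27.7% of the members' reads in AMPKα2 KO 1 and 9.94% to 12% in the other AMPKα2 libraries, against at most 0.0975% in an AMPKα1 library.

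Ckm had 11 APSs over the gene. Its 3′-untranslated main APS had 2862, 2117, 5066 and 2348 reads in AMPKα1 KO 1, KO 2, WT 1 and WT 2, and 3933, 6134, 6344 and 4226 reads in the AMPKα2 libraries in the same order. It was thus well read in both models. The 5 coding-exon APSs had 0 reads in the 4 AMPKα1 libraries and 105 to 841 reads each in every AMPKα2 library. The site at 19416794 had 841, 241, 465 and 286 reads, that at 19420242 had 774, 274, 449 and 231, and that at 19415023 had 764, 347, 333 and 177, in AMPKα2 KO 1, KO 2, WT 1 and WT 2. In AMPKα2 KO 1 all 5 were highest, and also when scaled by the library sizes and TMM factors of the gene counts. On that scale KO 2 lay below both WT libraries at 2 of the 5, above both at 1 and between them at the other 2. At 19415483 KO 2 was at 47.4 against 47.2 and 49.7 in WT, so that this split turns with the scaling. The APS 1264 bases beyond the gene end went the other way, with 570 to 1228 reads in AMPKα1 and 209 to 297 in AMPKα2. The 30 bases that end at each of the 5 coding-exon APSs of Ckm are shown to compare them with the main APS above (GRCm38, plus strand).
Ckm, chr7:19414248-19414277: cctctacaataagcttcgcgataaggagac
Ckm, chr7:19414994-19415023: tggcggctacaaacccacagacaagcataa
Ckm, chr7:19415454-19415483: ccgcagcatcaagggttacactctgcctcc
Ckm, chr7:19416765-19416794: gaagagcatgacggagcaggaacagcagca
Ckm, chr7:19420213-19420242: tgcacgtgaagctggcgaacctgagcaagc
None of them held AATAAA or ATTAAA, and neither did any of the 28 coding-exon APSs of the members whose 30 preceding bases could be read, against 1.41% and 1.23% of the 3985 readable coding-exon APSs of protein-coding genes. The members' coding-exon sites were thus like that class in lacking both hexamers. None of the 18 with readable bases after the site was followed by an A-rich stretch (7 As in a row, or 8 As in 10 bases), against 16% of 3181 such coding-exon APSs.

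**Figure D3:**
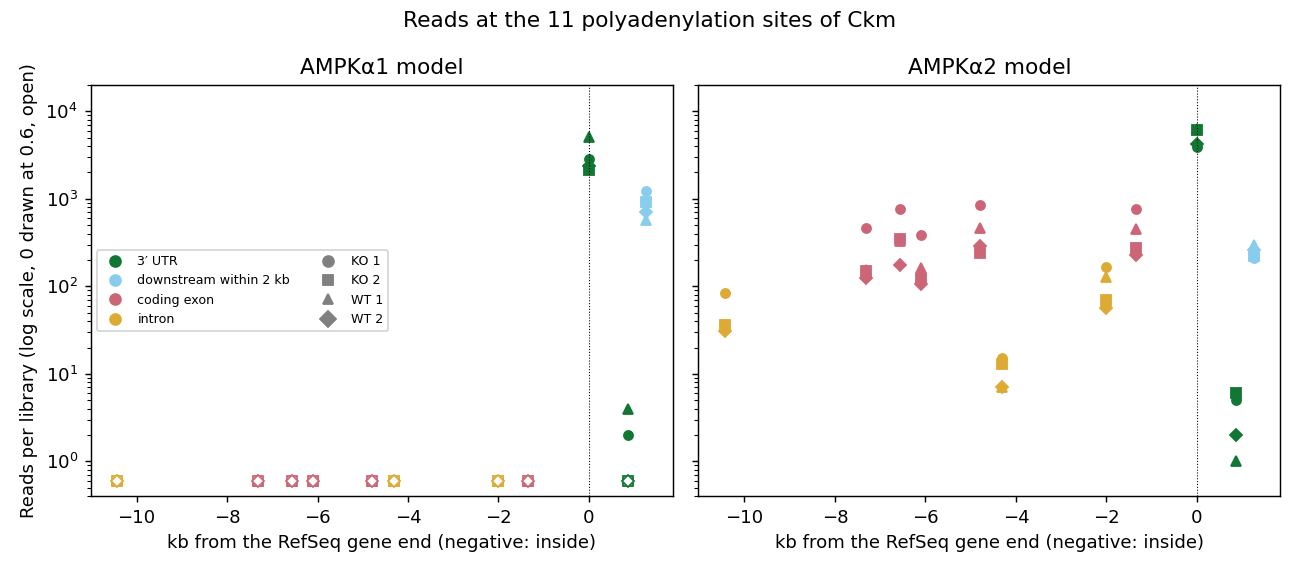
Reads at the 11 APSs of Ckm against their distance from the gene end in kb, AMPKα1 on the left and AMPKα2 on the right, on a log scale with 0 drawn as open symbols at 0.6; colour gives the class of the site and shape the library. Coding-exon and intronic sites are at 0 in the 4 AMPKα1 libraries, and the coding-exon sites lie between 105 and 841 in the AMPKα2 libraries with KO 1 highest.

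The same layout was seen in other members. Ampd1 had 9 coding-exon APSs and Ckmt2 had 6, of which 9 and 5 had no read in AMPKα1 and at least 16 in AMPKα2. The same held for 3 of 5 in Adssl1, 2 of 3 in Ak1 and 0 of 1 in Slc25a4, against 51.7% of all coding-exon APSs. The exception in Ak1, at chr2:32631162, had 25 reads in AMPKα1 KO 2, and the site of Slc25a4 had 1 read in AMPKα1 WT 1. Slc6a8, Ckb, Ampd3 and Nt5c1a had no coding-exon APS in the table. Of the reads of Adssl1, 28.3% to 37.7% lay in coding exons in the AMPKα2 libraries and 0% to 1.90% in AMPKα1. Its coding-exon APS at chr12:112632311 alone had 28, 186, 168 and 87 reads in AMPKα2 KO 1, KO 2, WT 1 and WT 2, against 0, 0, 14 and 0 in the AMPKα1 libraries.

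**Figure D4:**
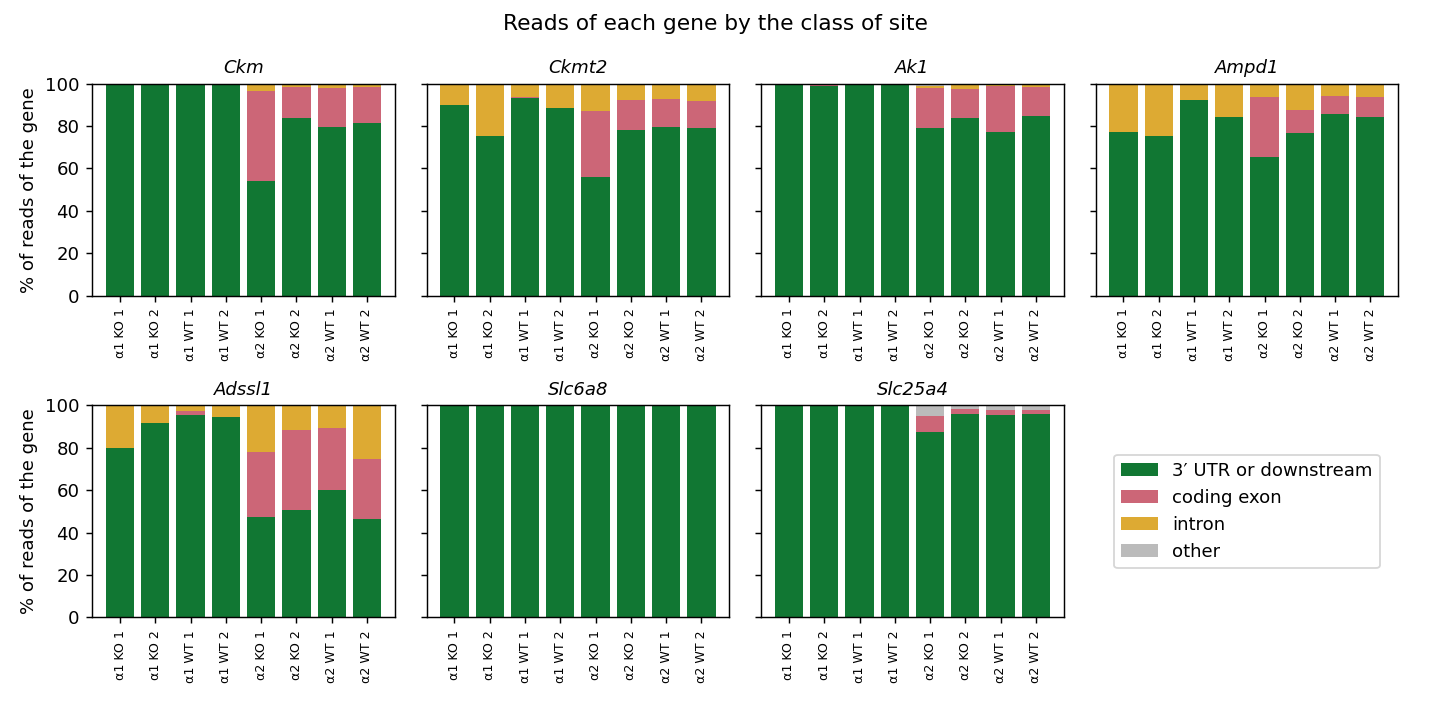
Share of the reads of 7 members by class of site in each of the 8 libraries, as stacked bars that sum to 100% (Ckb, Ampd3 and Nt5c1a, with few reads, are left out). Coding-exon reads appear in the AMPKα2 libraries, most in KO 1 for Ckm at 42.3%, and intronic reads of Ampd1 take 22.9% and 24.9% in the AMPKα1 KO libraries.

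Whether KO changed the use of sites within a member was tested with edgeR's diffSpliceDGE. No member was called, with 0 of 9 in AMPKα1 (0.0131% of 7644 genes) and 0 of 8 in AMPKα2 (0.182% of 3843). The share of reads at the main APS was lower in both KO libraries than in both WT libraries for 3 members in AMPKα1, Ckm, Ampd1 and Adssl1 (14.4% of genes), and for 2 in AMPKα2, Ckmt2 and Ampd1 (18.9%). It was higher in both for 3 in AMPKα1, Slc6a8, Slc25a4 and Nt5c1a (15.4%), and for 0 in AMPKα2 (13.0%). Ampd1 was among the lower ones in both models. Its main APS took 77.1% (95% Wilson interval 75.1 to 79.0) and 75.1% (73.2 to 76.9) of the reads in AMPKα1 KO and 92.4% (91.4 to 93.3) and 84.3% (83.1 to 85.4) in WT. In AMPKα2 it took 63.2% (58.9 to 67.4) and 74.9% (71.0 to 78.4) in KO and 84.6% (82.2 to 86.7) and 83.5% (80.2 to 86.3) in WT. The rest of the AMPKα1 reads were intronic, and the usage test gave Ampd1 adjusted p values of 0.854 and 1.00. These intervals, and the floor of 3 reads, cover counting error only. Amplified reads carried no molecular identifiers and are not separate molecules, and the spread between mice is left out. Over all genes with an annotated end, the share of reads within 100 bases of it was also lower in both KO libraries. It was 57.6% and 55.2% in AMPKα1 KO and 63.3% and 58.0% in WT. In AMPKα2 it was 25.7% and 32.9% in KO and 33.9% and 33.2% in WT. Intronic APSs took 10.5% and 12.6% of the reads of protein-coding genes in AMPKα1 KO and at most 9.79% in WT. These overlapped in AMPKα2. Whether Ampd1 differed beyond these shares was not tested.

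For Ckm in AMPKα1, the main APS took 69.9% and 69.6% of the reads in KO and 89.8% and 76.8% in WT, with nearly all other reads at the APS downstream of the gene. In AMPKα2 the shares were 51.5% in KO 1 and 80.6% in KO 2, against 75.7% and 76.7% in WT, and KO 1 alone was low. The main APS of Adssl1 took 76.6% and 91.6% in AMPKα1 KO and 95.2% and 94.5% in WT. Its intronic APS at chr12:112637715 held 220 and 35 reads for KO against 9 and 0 for WT (3.72 ± 1.72, edgeR adjusted p = 0.543). Ak1 divided its reads between the main APS and one in the 3′ untranslated region at chr2:32633866, which had 212 and 358 reads in AMPKα1 KO and 105 and 570 in WT, a range within WT wider than that between the groups.

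Fibre and cell type markers moved with some of these values. The summed level of 9 of 9 fast-fibre markers was 94544 and 86550 in AMPKα1 KO and 193204 and 111736 in WT, with both KO libraries lower, as for Ckmt2, Ak1, Ampd1 and Slc25a4, and with WT 1 highest, as for those genes and Ckm. Of the 9 markers, 7 were lower in both KO libraries (18.9% of all genes), and Myh2 and Tnnc2 overlapped. The 7 slow-fibre markers summed to 5296 and 2306 in KO and 2068 and 1669 in WT. However, Myh7 was the only 1 of the 7 that was higher in both KO libraries (2397 and 1416 against 666 and 659), and the other 6 overlapped. That pattern was found in 13.6% of all genes. In AMPKα2 the fast-fibre sum was 72522 and 61336 in KO and 60284 and 63137 in WT. Of these 9 markers, 4 (Myh4, Myh2, Mybpc2 and Tnnt3) were higher in both KO libraries (18.7% of all genes) and 1 (Tnnc2) was lower in both (20.5%). The slow-fibre sum was 2321 and 2355 in KO and 724 and 1520 in WT, with 6 of the 7 markers higher in both KO libraries (18.7% of all genes). Fibroblast markers summed to 11119 to 15938 in AMPKα1 and 1688 to 3640 in AMPKα2, endothelial markers to 144 to 235 and 29.7 to 43.1, nerve markers to 461 to 1172 and 70.6 to 227, and smooth muscle markers to 85.7 to 188 and 47.9 to 65.1. In AMPKα1 the fibroblast sum was also lower in both KO libraries (11178 and 11119) than in WT (12232 and 15938). So were the smooth muscle sum (85.7 and 103 against 114 and 188) and the nerve sum (568 and 461 against 633 and 1172). The endothelial sum overlapped, and in AMPKα2 the sums of these lists all overlapped. Erythroid sums ran from 486 to 1489, adipocyte sums from 108 to 1834 and macrophage sums from 106 to 328 over the 8 libraries, and KO and WT overlapped in both models. TMM factors were set within each model, so the sums of the 2 models are not on 1 scale. The library sets also differed in make-up, with 1.88% to 2.85% of reads outside genes in AMPKα1 and 15.3% to 17.9% in AMPKα2. Of the markers, Lep and Nefl were not in the table. The part of fibre type and of other cells in the members' differences was not tested.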

How the data were processed

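The deposited table held raw read counts per APS in 8 libraries, which the authors made from Ion PGM reads filtered with FASTX Toolkit 0.0.13.1, trimmed of leading Ts, mapped with TMAP 3.4.1 to GRCm38.p5, clustered by first base into APSs, kept at 16 or more reads over the 8 libraries and assigned to genes with Cuffcompare 2.2.1. How reads that map to several places were counted is not given in the sources used here. Counts were summed per gene symbol. KO and WT were compared within each model in edgeR 4.0.16 (R 4.3.3, limma 3.58.1), with TMM factors, a robust quasi-likelihood fit, at least 16 reads over the 4 libraries and Benjamini-Hochberg adjustment over all features tested. DESeq2 1.42.0 was an alternative. The SE was derived from the F statistic. The interaction of genotype and model used all 8 libraries, and site usage diffSpliceDGE. Sites were located with GENCODE M21 and RefSeq (GRCm38.p6). All members are named, with each APS at 5% or more of the reads of a gene considered. The code was tested on simulated data. The members, lists and markers were chosen with earlier results of these data known. Each library is 1 mouse, so that p-values measure the spread between mice, and with 2311242 to 3549156 reads the depth limits the genes with few reads. Alternatives were other scalings (RLE, library totals), other filters, 1 fit of all 8 libraries, a replicate block and leaving out each library. Python 3.11.15 with pandas, numpy, scipy and matplotlib was used for tables and figures.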

Additional observations from a re-analysis of the deposited data

Results flagged for a closer look

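Of the member APSs tested in both models, a single one had its KO libraries on opposite sides of the WT libraries in the 2 models. At the intronic APS of Ampd1 at chr3:103097831, both AMPKα1 KO libraries lay below both WT libraries on the normalised scale (log2 fold change -0.18 ± 0.70), at 48.7 ± 0.38 against 55.2 ± 7.20 CPM (SD, n = 2), and both AMPKα2 KO libraries lay above both WT libraries (1.44 ± 0.77), where the 4 libraries held 2 to 12 reads. The unadjusted p in edgeR's test was 0.797 in AMPKα1 and 0.0974 in AMPKα2. The difference of the effects was 1.62 and was not tested. The site was picked for this pattern of its libraries, and the share of all APSs with such a pattern was not counted.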

How the results depend on the processing

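The main counts of calls were 0 throughout. DESeq2 called 1 member in AMPKα1 (Ampd1). The fit of all 8 libraries called 1 gene of the wider list in AMPKα1, and a filter of 1 read called 1 in AMPKα2, Impdh1 in either case, named after its values were seen; that filter also called 4 member APSs in AMPKα2. Leaving out 1 library gave 0 to 4 called member APSs in AMPKα1. Members with both KO libraries below WT in AMPKα2 numbered 2 with library totals (24.8% of all genes) and 0 with APSs of at least 50 reads (20.5%). This alternative count was added after seeing the data.

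Some log2 fold changes turned sign. With library totals Adssl1 was 0.27 (main APS 0.091) in AMPKα1 and -0.083 in AMPKα2, and in AMPKα2 Slc6a8 was -0.094 (main APS -0.045) and Slc25a4 -0.020. Adssl1 in AMPKα1 was 0.0065 with DESeq2 and 0.0024 with RLE scaling. With APSs of at least 50 reads, Ampd3 was 0.083 in AMPKα1 and Adssl1 -0.031 in AMPKα2. In AMPKα2 the main APS of Slc25a4 was 0.023 without the filter and 0.083 in the 8-library fit, where that of Ckmt2 was 0.040. The difference of effects of Adssl1 was -0.36 with library totals.

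Replicate numbers did not pair the libraries: deviations of same-numbered libraries from their group means correlated at 0.024 in AMPKα1 and 0.0043 in AMPKα2. With the replicate block, 0 members were called in either model and in the interaction. Adssl1 was then 0.057 and the main APS of Ampd3 -0.087 in AMPKα1, and the difference of effects of Adssl1 -0.0088. Over the fits without 1 library, genes ranged from -1.58 to 0.18 (Ckm), -0.46 to 0.62 (Adssl1) and -1.39 to 0.95 (Ampd3) in AMPKα1, and from -0.30 to 0.53 (Slc6a8), -0.44 to 0.15 (Ampd1) and -0.086 to 0.21 (Adssl1) in AMPKα2. Main APSs ranged from -0.83 to 0.38 (Adssl1) and -1.08 to 0.77 (Ampd3) in AMPKα1, and in AMPKα2 from -0.62 to 0.027 (Adssl1), -0.16 to 0.10 (Slc25a4), -0.34 to 0.38 (Slc6a8), -0.0063 to 0.42 (Ak1) and -0.19 to 0.039 (Ckmt2). Differences of effects ranged from -0.63 to 0.56 (Adssl1) and -0.19 to 1.98 (Ampd3). The cause was not tested. Ckb, Ampd3 and Nt5c1a are limited by depth.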
